A study of Mus musculus with 12 samples.

Results

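The genes described here are the cytokine, chemokine, complement and interferon families of the mouse, with their receptors, the genes of the major histocompatibility complex (MHC, symbols beginning H2-) and the numbered CD surface antigens. They were taken by their symbols, under a choice made with earlier results of these data known. The families held 180 of the 8127 genes that carry a name on these arrays, read by 226 probes, and 37 of them had more than 1 probe, of which the brightest stood for the gene. The study measured RNA of primary cultured granulosa cells, the steroid-producing support cells of the ovarian follicle, on Illumina Sentrix Mouse-6 arrays. The cells came from immature mice aged 21 to 23 days, with 14 to 20 ovaries pooled for each biological replicate. Cultures received activin A, activin A together with its antagonist follistatin, or PBS as the vehicle, and RNA was taken after 24 h. The experiment was run 4 times with 1 array of each treatment, which gave 12 arrays and 4 per treatment. A pool carries no information on single animals, and the labels name no genotype, strain or allele.

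Cytokines and chemokines are secreted signals, most of which act through paired receptor chains that feed into JAK-STAT, NF-kappaB or G-protein signalling. Interferons induce a broad set of antiviral and antigen-presentation genes through JAK-STAT signalling and IRF9, while complement proteins form a proteolytic cascade and MHC molecules display peptides to lymphocytes. In the ovary these families are known mostly from resident leukocytes and from the inflammation-like events of ovulation, and granulosa cells are also known to make some of them.

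Values are the deposited ones, which read as log2, and a difference of 1 is a doubling under that reading. The mean over 12 arrays of the brightest control spot, 7.35, was taken as the background, and the scale does not subtract it, so differences near it understate the change. Of the 180 genes, 55 (30.6%) had a mean above this background, against 47.8% of the 7947 other named genes, and 125 lay at it. Above background were 8 of 23 interleukins and receptors, 4 of 18 chemokines and receptors, 5 of 15 tumour necrosis factor (TNF) superfamily genes and 0 of 3 colony-stimulating factor genes. The same held for 11 of 44 genes of the interferon system, 1 of 6 Toll-like receptors, 3 of 11 complement genes, 11 of 23 MHC genes and 12 of 37 CD antigens. Levels of different genes come from different probes and are not compared as amounts.

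The brightest members were receptors and membrane proteins, and the 5 named next were not called in any treatment comparison. The signalling chain of the interferon gamma receptor, Ifngr2, averaged 11.94 ± 0.03 (SD, n = 4) with activin, 11.92 ± 0.15 with activin plus follistatin and 11.85 ± 0.08 with PBS. The ligand-binding chain of the interleukin 11 receptor, Il11ra1, averaged 11.41 ± 0.09, 11.60 ± 0.11 and 11.46 ± 0.22 in the same order of treatments, and the main receptor for TNF, Tnfrsf1a, 10.58 ± 0.29, 10.76 ± 0.14 and 10.55 ± 0.17. Ifitm2, an antiviral membrane protein like Ifitm1, had a mean of 11.77 over the 12 arrays. Of the Toll-like receptors Tlr4, which senses bacterial lipopolysaccharide, was the brightest, at 7.48 ± 0.06, 7.5 ± 0.04 and 7.5 ± 0.05.

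Some symbols do not describe an immune role or the class they are counted in. Tnfaip8 is counted with the TNF superfamily by its symbol and is neither a ligand nor a receptor of it. H2-Ke6 encodes a hydroxysteroid dehydrogenase, Cd3eap a subunit of RNA polymerase I, and Cd320 the receptor through which cells take up vitamin B12 bound to transcobalamin. H2-Q5, H2-T10, H2-D4 and H2-Bl are annotated as transcribed pseudogenes and Ifngas1 as a long noncoding RNA. Class I H2 genes, Il11ra1 with Il11ra2, C1s1 with its duplicate and the alpha interferons are near-identical families, and cross-hybridization among them was not tested.

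**Figure D1:**
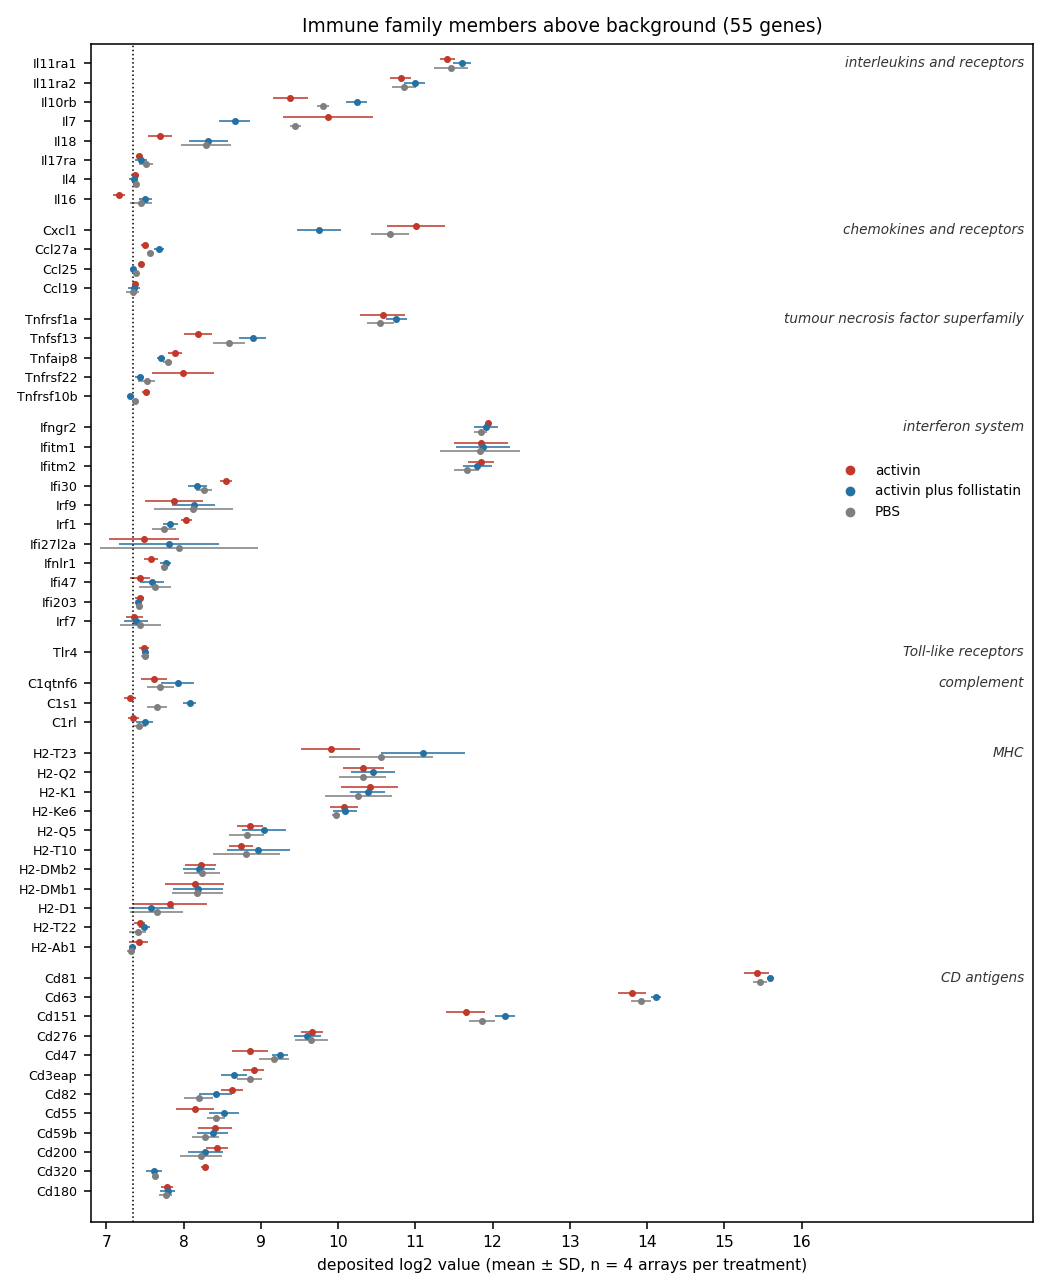
Mean log2 value (x axis, ± SD, n = 4 arrays) of each of the 55 members above background, grouped by role, for activin, activin plus follistatin and PBS. The dotted line is the background of 7.35. Il10rb, Il7, Cxcl1, Tnfsf13, C1s1 and Cd320 stand apart between activin and activin plus follistatin.

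Markers fixed for the cell types a follicle culture could hold were at or near background for leukocytes. Of 8 measured macrophage markers (19 listed) only Lyz2 lay above background, and Csf1r, Ptprc, C1qa, C1qb, Cd68 and Itgam did not. The list mean ran from 7.05 to 7.09 with activin, 7.03 to 7.19 with activin plus follistatin and 7.05 to 7.13 with PBS. Of 4 T and NK cell, 2 B cell and 6 neutrophil markers measured (18, 10 and 12 listed), 0 lay above background. In limma 0 of these 3 lists' genes were called in any of the 3 treatment comparisons. An unadjusted p below 0.05 was reached by 1 B cell gene in 2 of them. Values at background do not show that such cells were absent. Of 9 measured stromal and theca markers, 3 carried a difference between treatments. The list mean was 8.01 to 8.09 with activin, 8.63 to 8.99 with activin plus follistatin and 8.35 to 8.72 with PBS, without overlap between activin and either other treatment. Activin against activin plus follistatin called 3 of the 9 lower, Aldh1a1 (-2.35 ± 0.22 (SE)), Dcn (-2.81 ± 0.54) and Col3a1 (-0.95 ± 0.12). The other 6 were not called, with Gli2 in the opposite direction (0.23 ± 0.10) and Col1a1 at 0.06 ± 0.07. Aldh1a1 averaged 14.04 over the 12 arrays, while Col1a2, Lhcgr and Insl3 lay at background. Against PBS, Aldh1a1 (-1.83 ± 0.22) and Col3a1 (-0.73 ± 0.12) were lower with activin. The experiment as a block in the fit added Dcn (-1.77, SE 0.54 without the block and 0.30 with it). On the higher side the block added Gli2 (0.20, SE 0.10 without the block and 0.05 with it), also against activin plus follistatin. Of 4 endothelial markers 1, Robo4, was lower with activin than with activin plus follistatin (-0.80 ± 0.10). The block called Robo4 against PBS too, lower with activin (-0.28) and higher with activin plus follistatin (0.52). The SE of both was 0.10 without the block and 0.07 with it. Of 3 measured granulosa markers (16 listed), Fst is described below, and Amhr2 and Wt1 were not called without the block. The block called Wt1 lower with activin, against PBS (-0.38) and against activin plus follistatin (-0.73). The SE of both Wt1 differences was 0.22 without the block and 0.08 with it. Amhr2 differed by 0.14 ± 0.21 and -0.06 ± 0.21 and was not called with the block. The part of these cell types in the results below was not tested. In cultures of mixed cells, fewer cells of a type and less RNA per cell cannot be told apart.

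The first comparison asks what activin changes against vehicle. Fst, a gene that activin is known to induce and that encodes follistatin itself, was higher with activin in every experiment and averaged 12.92 ± 0.20 (SD) with activin and 10.40 ± 0.32 with PBS (log2 difference 2.52 ± 0.19 (SE), adjusted p = 3.13e-05 in limma with Benjamini-Hochberg adjustment over all probes). Of the 180 immune family genes, 6 (3.33%) were called at an adjusted p below 0.05, 4 higher and 2 lower. The background was 5% of all named genes, 2.85% higher and 2.14% lower, so the share in the families was near that of named genes at large. Among genes above background, 5 of the 55 members (9.09%) were called, against 10.1% of named genes. The members' count was 3 without any 1 of the activin arrays of experiments 1, 2 and 3, the activin plus follistatin arrays of experiments 1 and 2 and the PBS array of experiment 3. The median difference of the 180 members was 0.003, and that of all named genes 0.002. The fitted p-values measure the spread between these pooled cultures.

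The called gene with the largest difference was Cd320, the transcobalamin receptor. It read 8.35, 8.29, 8.26 and 8.22 in the activin arrays of experiments 1 to 4, against 7.68, 7.60, 7.63 and 7.61 in the PBS arrays. All activin arrays stood above all PBS arrays, and the difference was 0.65 ± 0.05 (SE), a 1.57-fold rise (adjusted p = 3.13e-05). C1s1, a serine protease of the first complement component, read 7.34, 7.41, 7.24 and 7.23 with activin, against 7.47, 7.70, 7.76 and 7.71 with PBS. The groups did not overlap, although the activin values lay near background, and C1s1 fell by 0.36 ± 0.07 (adjusted p = 0.0132). The call was lost without the arrays of experiment 2, 3 or 4 (adjusted p of up to 0.119).

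The other 4 calls were small and depended on single arrays. Ifi30, a lysosomal thiol reductase that interferon gamma induces and that prepares antigens for MHC class II, rose by 0.29 ± 0.07 (adjusted p = 0.0397). Il16, the precursor of a chemoattractant for CD4+ cells, fell by 0.29 ± 0.07 (adjusted p = 0.0453). Tnfrsf10b, a death receptor for the TNF family ligand TRAIL, rose by 0.14 ± 0.03 (adjusted p = 0.0353), and Il2ra, the alpha chain of the interleukin 2 receptor, by 0.13 ± 0.03 (adjusted p = 0.0474). Il2ra averaged 7.14 with activin and 7.01 with PBS, both below background. Leaving out 1 array ended the Ifi30 call for 8 of the 12 arrays (all but activin plus follistatin of experiment 3, PBS of experiment 3 and the activin and activin plus follistatin arrays of experiment 4), with an adjusted p of up to 0.109. It ended the Il16 call for 10 arrays (all but activin plus follistatin of experiment 2 and PBS of experiment 4, up to 0.119) and the Il2ra call for all but the PBS array of experiment 2 (up to 0.125). It ended the Tnfrsf10b call for the 3 arrays of experiment 2, for activin and PBS of experiment 3 and for PBS of experiment 4 (up to 0.108). Il10rb, the signalling chain shared by the receptors of interleukin 10, interleukin 22 and interferon lambda, differed by -0.42 ± 0.10 and missed the threshold (adjusted p = 0.0502).

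With the experiment number as a block in the fit, 16 members (8.89%) were called against PBS, 6 higher and 10 lower, where 10.6% of named genes were called. The genes added by the block included Cd82 (0.44 ± 0.12 without the block), a tetraspanin, and Irf1 (0.28 ± 0.07), a transcription factor that interferon gamma induces. On the lower side they included Il10rb, Il18 (-0.59 ± 0.16), a cytokine activated by the inflammasome, Tnfsf13 (-0.40 ± 0.12), the B cell factor APRIL, and Cd47 (-0.31 ± 0.12), the surface signal that restrains phagocytosis. Il2ra was the 1 call of the fit without a block that the block did not make (adjusted p = 0.0628).

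Follistatin given with activin was compared with PBS to see what remains, or reverses, when activin is bound. Fst averaged 8.70 ± 0.35 (SD) with activin plus follistatin, below PBS in every experiment (-1.70 ± 0.19 (SE), limma adjusted p = 0.00281). PBS was thus not the lowest level of this activin-induced gene, and activin already present in the PBS cultures was not measured. In this comparison 1 member (0.556%) was called, C1s1, and the background was 0.258% of named genes, 0.111% higher and 0.148% lower, and 0.544% of those above background. C1s1 read 8.0, 8.08, 8.20 and 8.04 with activin plus follistatin, against 7.47, 7.70, 7.76 and 7.71 with PBS. The 2 groups did not overlap, and the difference was 0.42 ± 0.07 (SE), a 1.34-fold rise (limma adjusted p = 0.0329). The call was lost without any 1 of 7 arrays, namely the 4 activin plus follistatin arrays, PBS of experiments 2 and 4 and activin of experiment 1, with an adjusted p of up to 0.104. With the experiment as a block 4 members were called, against 2.17% of named genes: C1s1, Il10rb (0.44 ± 0.10 without the block) and the tetraspanin Cd151 (0.30 ± 0.12) higher, and the neutrophil chemoattractant Cxcl1 (-0.92 ± 0.19) lower.

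Activin against activin plus follistatin contrasts added activin without and with its antagonist, and does not use the PBS arrays as one of its groups. For Fst this difference was 4.22 ± 0.19 (SE), with PBS between the 2 treatments. Here 16 members (8.89%) were called, 7 higher and 9 lower, where 11.9% of named genes were called, 5.5% higher and 6.42% lower. The members' count was 10 without the activin plus follistatin array of experiment 3. Among genes above background the members' share was 27.3% (15 of 55), against 23.8% of named genes. By role the calls were 4 interleukins or receptors (1 higher, 3 lower), 4 TNF superfamily genes (3 higher, 1 lower), 3 CD antigens (1 higher, 2 lower), 2 chemokines (1 of each), 2 genes of the interferon system (1 of each) and 1 complement gene (lower). Of 23 MHC genes, 6 Toll-like receptors and 3 colony-stimulating factor genes, 0 were called in limma, with 1, 0 and 0 at an unadjusted p below 0.05. With the experiment as a block the count was 26 members (14.4%), 8 higher and 18 lower, against 18.9% of named genes.

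**Figure D2:**
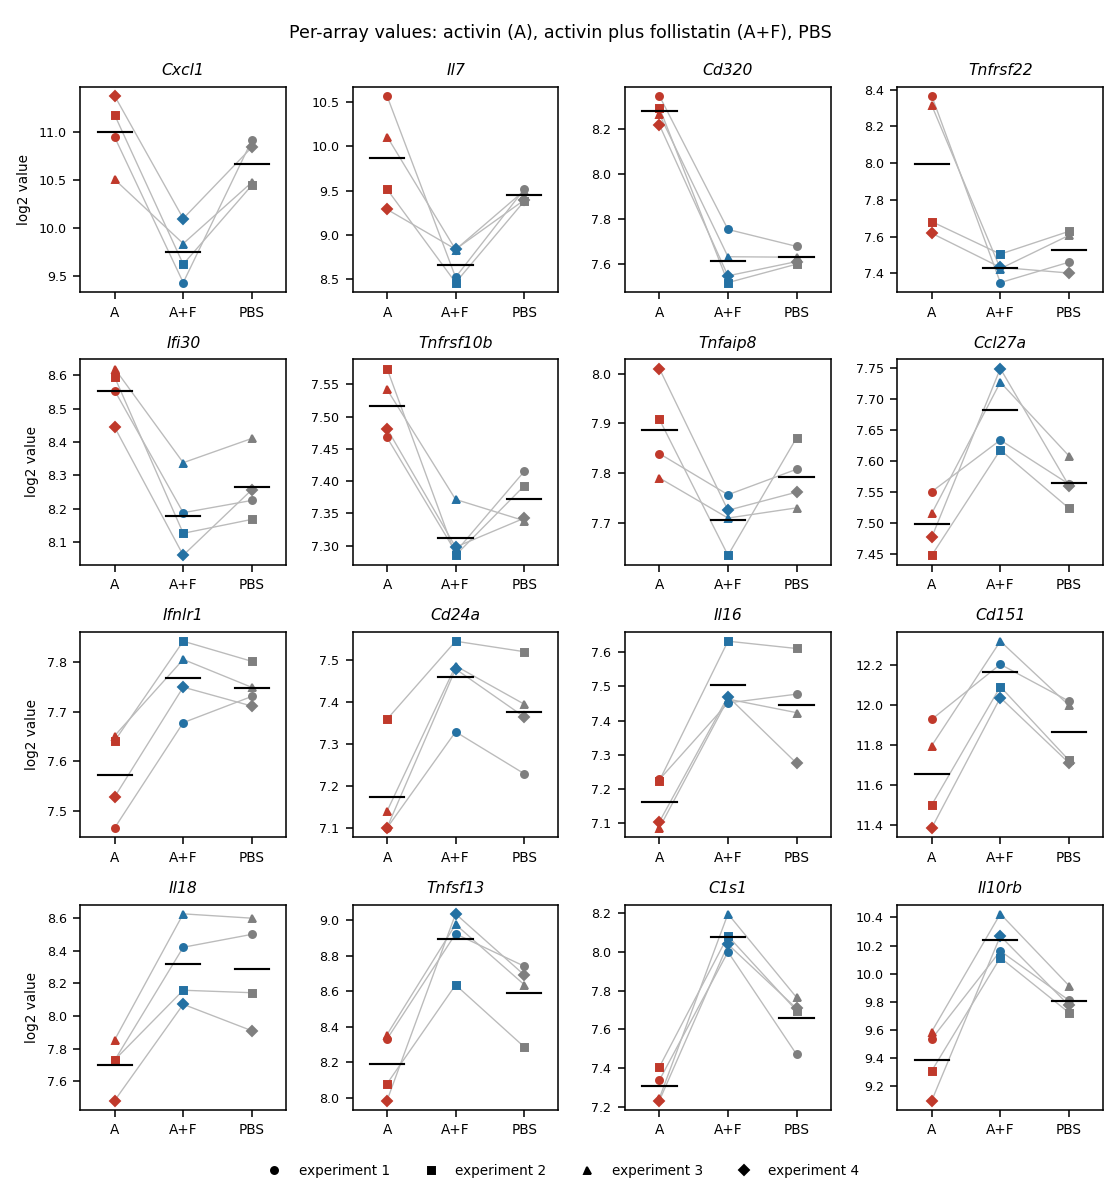
Log2 value of each array (y axis, a scale of its own per gene) for the 16 members called between activin (A) and activin plus follistatin (A+F), with PBS at the right. Symbols mark the 4 experiments, grey lines join arrays of 1 experiment and black bars are the means of 4 arrays. Cxcl1, Il7 and 5 others are higher with activin, and the 9 from Ccl27a to Il10rb are lower.

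Cxcl1, which draws neutrophils through the receptor Cxcr2, showed the largest rise. It read 10.95, 11.18, 10.51 and 11.38 in the activin arrays, 9.43, 9.62, 9.84 and 10.10 in the activin plus follistatin arrays, and 10.91, 10.45, 10.48 and 10.84 in the PBS arrays. Every activin array was above every activin plus follistatin array, while the activin and PBS arrays overlapped. The difference was 1.25 ± 0.19 (SE), 2.39-fold, and it was positive in 4 of 4 experiments (adjusted p = 0.00163). Set against PBS, Cxcl1 differed by 0.33 ± 0.19 with activin (adjusted p = 0.581) and by -0.92 ± 0.19 with activin plus follistatin (adjusted p = 0.124), 2 comparisons that share the PBS arrays. Its receptor Cxcr2 lay at background, with a mean of 7.20.

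The promoter of Cxcl1 is known for its NF-kappaB sites, so the 250 bases before its start are shown, at chr5:90890995-90891244 on the plus strand of GRCm38.p6 (RefSeq sequence). Capitals mark matches to GGGNNTTNCC on either strand.
Cxcl1: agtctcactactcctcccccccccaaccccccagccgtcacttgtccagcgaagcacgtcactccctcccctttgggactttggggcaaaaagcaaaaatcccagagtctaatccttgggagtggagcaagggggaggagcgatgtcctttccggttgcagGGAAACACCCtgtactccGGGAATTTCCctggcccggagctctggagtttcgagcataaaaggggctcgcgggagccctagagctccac
The matches begin 89 bases (reverse strand) and 71 bases (forward strand) before the start. In windows from 250 bases before to 50 after each start, this motif was present in 5.48% of 27025 genes and in 21 of the 138 members that have a window. A match is a string of letters and not a measured site.

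Il7, a growth factor for developing lymphocytes, rose by nearly as much. It read 10.57, 9.51, 10.11 and 9.29 with activin, 8.52, 8.46, 8.83 and 8.84 with activin plus follistatin, and 9.51, 9.38, 9.50 and 9.39 with PBS. Activin arrays were all above activin plus follistatin arrays but spread on both sides of PBS, with experiments 1 and 3 high. The difference was 1.21 ± 0.22, 2.31-fold (adjusted p = 0.00561), and 0.0571 without experiment 3.

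Receptor chains and cytokines that were lower with activin included Il10rb. It read 9.54, 9.31, 9.59 and 9.10 with activin, 10.16, 10.11, 10.43 and 10.27 with activin plus follistatin, and 9.81, 9.72, 9.91 and 9.77 with PBS. The 3 treatments did not overlap, with PBS in the middle, and the difference between activin and activin plus follistatin was -0.86 ± 0.10 (adjusted p = 0.000255). Ifnlr1 encodes the chain that pairs with the Il10rb product in the interferon lambda receptor. It read 7.46, 7.64, 7.65 and 7.53 with activin, against 7.68, 7.84, 7.81 and 7.75 with activin plus follistatin. It was lower too, by a small amount (-0.20 ± 0.05, adjusted p = 0.0249), and the call was lost without activin of experiment 1 or 4 or activin plus follistatin of experiment 2 or 3 (adjusted p of up to 0.0796).

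Il18 read 7.73, 7.73, 7.85 and 7.48 with activin, 8.42, 8.16, 8.63 and 8.07 with activin plus follistatin, and 8.501, 8.14, 8.60 and 7.91 with PBS. Its activin arrays lay below all arrays of both other treatments. The difference from activin plus follistatin was -0.62 ± 0.16 (adjusted p = 0.0355). That from PBS was -0.59 ± 0.16 and did not pass (adjusted p = 0.0853), although the block fit called it (adjusted p = 0.000498). The first of these calls was lost without any 1 of 6 arrays, namely activin of experiments 1, 2 and 4 and activin plus follistatin of experiments 1, 2 and 3 (up to 0.106). Il16 read 7.23, 7.22, 7.09 and 7.10 with activin, against 7.45, 7.63, 7.46 and 7.47 with activin plus follistatin. It was lower without overlap, with a difference of -0.34 ± 0.07 (adjusted p = 0.00784), and 0.0751 without experiment 3.

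In the TNF superfamily class, set by symbol, 1 ligand gene was called lower, and 2 receptor genes and Tnfaip8 were called higher. The ligand gene Tnfsf13 read 8.33, 8.08, 8.36 and 7.98 with activin, 8.92, 8.63, 8.98 and 9.03 with activin plus follistatin, and 8.74, 8.29, 8.64 and 8.69 with PBS. Activin arrays were all below activin plus follistatin arrays (-0.70 ± 0.12, adjusted p = 0.00324). The death receptor gene Tnfrsf10b read 7.47, 7.57, 7.54 and 7.48 with activin, against 7.29, 7.29, 7.37 and 7.30 with activin plus follistatin. It was higher without overlap (0.21 ± 0.03, adjusted p = 0.00187), and so was the TRAIL decoy receptor gene Tnfrsf22 (0.57 ± 0.15, adjusted p = 0.0466). Tnfrsf22 read 8.37, 7.68, 8.31 and 7.62 with activin, against 7.35, 7.51, 7.43 and 7.43 with activin plus follistatin, so its rise was large in experiments 1 and 3 and small in the others. Tnfaip8, a regulator of cell survival that TNF induces, was higher by 0.18 ± 0.05 (adjusted p = 0.0445). Leaving out 1 array ended the Tnfrsf22 call for 10 arrays (all but the activin arrays of experiments 2 and 4, up to 0.115) and the Tnfaip8 call for 10 arrays (all but PBS of experiment 2 and activin of experiment 3, up to 0.131). The dimmer probes of Tnfrsf10b and Tnfrsf22 were not called.

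C1s1 had the lowest values with activin and the highest with activin plus follistatin, as given above, without overlap. The difference was -0.77 ± 0.07 (adjusted p = 2.46e-05), and no fold is given because the activin mean, 7.31, lay below background. A dimmer probe of the gene was also lower (-0.66), and another, at background, was not called. The complement genes C1qtnf6, a C1q-related secreted protein, and C1rl, a protease related to C1r, differed by -0.31 ± 0.12 and -0.14 ± 0.06 and were called only with the block. Complement genes outside the families, 6 measured of 27 listed, had 0 calls in limma against either control, with 1 at an unadjusted p below 0.05 against activin plus follistatin and 1 against PBS. The block added Cr1l, a membrane complement regulator, against PBS (0.19, SE 0.07 without the block and 0.04 with it).

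Among the surface antigens Cd320 repeated its difference (0.67 ± 0.05, adjusted p = 7.25e-06). With activin plus follistatin it read 7.75, 7.52, 7.63 and 7.55, and these values overlapped with PBS. Cd151, a tetraspanin that binds laminin-receptor integrins, read 11.93, 11.50, 11.80 and 11.38 with activin, 12.20, 12.09, 12.32 and 12.04 with activin plus follistatin, and 12.02, 11.72, 11.998 and 11.71 with PBS. Activin arrays were below activin plus follistatin arrays (-0.51 ± 0.12, adjusted p = 0.0228), and the gene's second probe was called as well (-0.46). Cd24a, a small glycosylated surface protein, was lower by a difference of -0.29 ± 0.07 (adjusted p = 0.035) from a mean at background. Leaving out 1 array ended the Cd151 call for activin of experiments 2 and 4 and activin plus follistatin of experiments 1 and 3 (up to 0.0745), and the Cd24a call for 8 arrays (all but PBS of experiments 1 and 2, activin of experiment 2 and activin plus follistatin of experiment 1, up to 0.107). Cd81 and Cd63, the brightest members with means of 15.49 and 13.95, were not called (-0.18 ± 0.07 and -0.31 ± 0.09). With the block Cd63, Cd47 and Cd55, an inhibitor of complement activation, were called lower, and Cd3eap higher.

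The last called members were a chemokine and Ifi30. Ccl27a, a chemokine known from the skin, read 7.55, 7.45, 7.51 and 7.48 with activin, against 7.63, 7.62, 7.73 and 7.75 with activin plus follistatin (-0.18 ± 0.04, adjusted p = 0.00753). The groups did not overlap, and both lay near background. The call was lost without the arrays of experiment 3 or of experiment 4 (adjusted p of up to 0.0821). Ifi30 read 8.55, 8.59, 8.62 and 8.44 with activin, against 8.19, 8.13, 8.34 and 8.06 with activin plus follistatin. It was higher with activin (0.37 ± 0.07, adjusted p = 0.00392, and 0.0529 without experiment 2).

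Calls in activin against activin plus follistatin that held under every alternative tried were those of Cd320, C1s1, Cxcl1, Il10rb, Tnfsf13 and Tnfrsf10b. The calls that 1 left-out array ended were also lost without at least 2 of the 4 experiments.

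**Figure D3:**
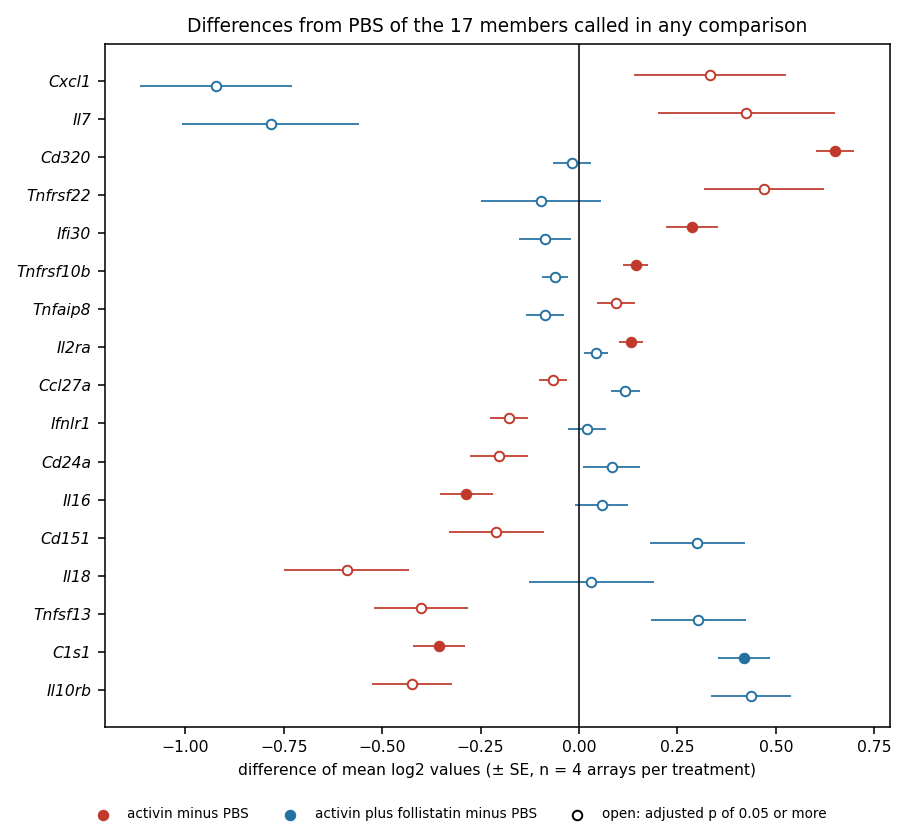
Difference from PBS in mean log2 value (x axis, ± SE, n = 4 arrays) of the 17 members called in any of the 3 treatment comparisons, for activin and for activin plus follistatin. Filled symbols have an adjusted p below 0.05 and both differences of a gene share its PBS arrays. Cd320 differs with activin alone (0.65 and -0.02), while C1s1 is filled on both sides of 0.

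Genes around the families were counted from lists of pathway members outside them. Of 16 measured JAK-STAT and SOCS genes, 2 rose with activin against PBS, the feedback inhibitors of cytokine receptors Socs2 (1.58 ± 0.23) and Socs1 (0.56 ± 0.11). Against activin plus follistatin they were higher again (1.85 ± 0.23 and 0.51 ± 0.11), and the kinase gene Jak2 was lower (-0.38 ± 0.07). The called shares were 12.5% and 18.8%, beside 5% and 11.9% of all named genes. More of this list lay above background (75%) than of all named genes (47.5%). Above background the shares were 16.7% and 25%, beside 10.1% and 23.8% of named genes. The block raised the second count to 5 with Stat3 (-0.60, SE 0.17 without the block and 0.08 with it) and Cish (0.38, SE 0.12 and 0.10). Of 13 NF-kappaB and Toll signalling genes, 0 were called against PBS in limma in either comparison, with 3 at an unadjusted p below 0.05 for activin and 2 for activin plus follistatin. Against activin plus follistatin 3 were lower, the regulatory subunit Ikbkg (-0.18 ± 0.03) and the kinases Tbk1 (-0.20 ± 0.04) and Ripk1 (-0.26 ± 0.06). Above background these were 3 of 10 (30%), beside 23.8% of named genes. Of 9 measured cytokines and receptors outside the symbol rule, 3 were called for activin against PBS (33.3%, beside 5% of named genes). Above background these were 3 of 6 (50%), beside 10.1% of named genes. Mif, a cytokine that inhibits macrophage migration, averaged 14.51 ± 0.12 (SD) with activin, 13.63 ± 0.04 with activin plus follistatin and 14.05 ± 0.06 with PBS. All 3 pairs of treatments were called, with differences of 0.46 ± 0.06 for activin and -0.42 ± 0.06 for activin plus follistatin from PBS, and 0.88 ± 0.06 between them. The membrane chemokine Cx3cl1 rose by 0.67 ± 0.12 against PBS, and the neurotrophic cytokine Cntf fell by 0.38 ± 0.09. The block added Spp1, the secreted phosphoprotein osteopontin, in all 3 comparisons. Its differences were 0.94 for activin and -1.04 for activin plus follistatin from PBS, and 1.99 between them. Their SE was 0.61 without the block and 0.13 with it.

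Interferon and antigen-presentation genes gave few calls between treatments, and many of them lay at background. Of 44 members of the interferon system, 1 (2.27%) was called against PBS and 2 (4.55%) against activin plus follistatin, as given above. The shares of all named genes were 5% and 11.9%. Only 11 of the 44 lay above background. Of these, 9.09% and 18.2% were called, beside 10.1% and 23.8% of named genes above background. Of 14 measured interferon response genes outside the symbol rule, 0 were called by limma in the 3 comparisons, with 0, 0 and 1 at an unadjusted p below 0.05. The block added Trim25, a ubiquitin ligase, against activin plus follistatin (0.54, SE 0.15 without the block and 0.08 with it). Of 8 antigen-processing genes 0 were called, with 0 at an unadjusted p below 0.05 for activin against PBS and 2 in each of the others, and the block added the proteasome activator Psme2 against activin plus follistatin (-0.19). In the MHC, H2-T23, a non-classical class I gene whose product is the mouse counterpart of HLA-E, had the largest difference. It read 10.01, 10.29, 9.93 and 9.37 with activin, 11.34, 10.92, 11.70 and 10.44 with activin plus follistatin, and 11.08, 10.54, 11.00 and 9.62 with PBS. Every activin array was below every activin plus follistatin array, but the wide spread between experiments left the difference of -1.20 ± 0.34 uncalled (adjusted p = 0.0622), while the block called it (adjusted p = 0.000943). Its second probe gave -0.83 and was not called either. For H2-Ab1, a class II beta chain near background, the second probe was called (0.26) and the brighter one was not (0.08 ± 0.05).

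The members also differed between the 4 runs of the experiment. Whether these differences varied with the treatment was not tested. A limma F test for the experiment, with treatment in the fit, called 23 members (12.8%), against 9.25% of named genes. The count was 11 without experiment 1, 13 without experiment 3 and 9 without the treatment term. Among genes above background it called 18 of 55 (32.7%), against 18.5% of named genes. What differed between the runs, such as the animals, the pools or the array handling, is not labelled, and those sources cannot be told apart. The called members were 8 of 23 MHC genes, 7 of 44 interferon system genes, 4 of 37 CD antigens, 2 of 11 complement genes and 2 of 23 interleukins or receptors. Of the chemokine, TNF superfamily, colony-stimulating factor and Toll-like receptor genes 0 were called, with 0, 2, 0 and 0 at an unadjusted p below 0.05. Of the 23 genes, 13 were called in no treatment comparison, with or without the block.

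**Figure D4:**
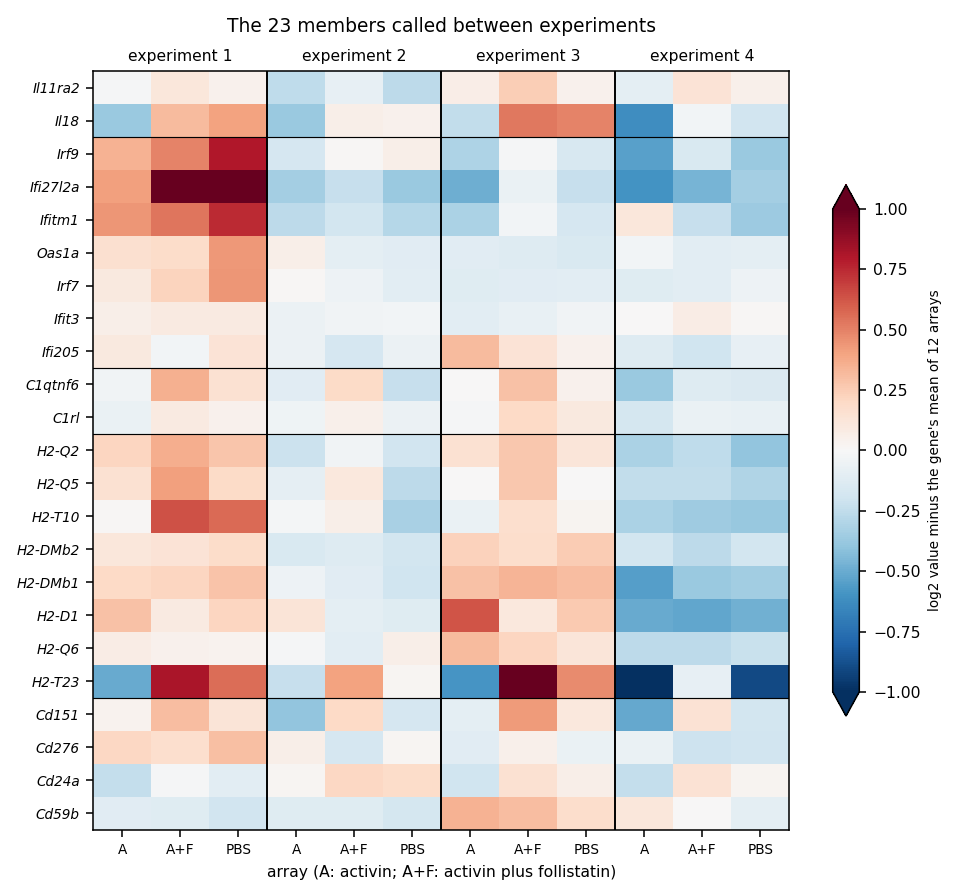
Log2 value minus the gene's mean of 12 arrays (colour, cut at -1 and 1) for the 23 members called between experiments, in rows ordered by role, with arrays in columns by experiment and, within it, activin (A), activin plus follistatin (A+F) and PBS. The 8 MHC genes have their lowest mean in experiment 4, and Irf9, Ifi27l2a, Ifitm1, Oas1a, Irf7 and Ifit3 their highest in experiment 1.

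Interferon-response members were highest in experiment 1. The gene with the widest range, Ifi27l2a, a small interferon-induced membrane protein, averaged 8.79 over the arrays of experiment 1, against 7.43, 7.48 and 7.28 in experiments 2, 3 and 4. In experiment 1 it read 8.15 with activin, 8.75 with activin plus follistatin and 9.47 with PBS, and all 3 arrays stood above all 9 others (adjusted p = 0.00503). Irf9, a DNA-binding factor of the interferon response, averaged 8.59, 8.01, 7.88 and 7.69 in experiments 1 to 4 (adjusted p = 0.000888). Ifitm1, a membrane protein that restricts virus entry, averaged 12.43, 11.61, 11.69 and 11.70 (adjusted p = 0.00989). For both genes, too, the arrays of experiment 1 were separate from the rest. Oas1a, an RNA sensor of the oligoadenylate synthetase family (7.47 in experiment 1, and 7.16, 7.08 and 7.13 in the others), and the transcription factor Irf7 (7.65, and 7.35, 7.28 and 7.30) were also highest in experiment 1, at lower values. Ifit3, an interferon-induced RNA-binding protein, averaged 7.30 in experiment 1 and between 7.15 and 7.26 in the others, all under background. Ifi205, the other called gene of this class, was highest in experiment 3 (7.43). Leaving out experiment 1 ended the calls of Ifi27l2a (adjusted p = 0.505) and Ifitm1 (0.949), and Irf9 kept its call without any 1 experiment. The Oas1a call was lost without experiment 1 or 3, the Irf7 call without experiment 1, 3 or 4, and the Ifi205 call without experiment 1, 2 or 4 (adjusted p of up to 0.684, 0.808 and 0.39). That of Ifit3 was lost without any 1 experiment (up to 0.4).

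Of the 14 measured interferon response genes outside the symbol rule, the F test called 7 (50%), beside 9.25% of named genes. Above background it called 87.5% of them, beside 18.5% of named genes. All 7 were highest in experiment 1: Igtp, Irgm2, Ddx58, Parp9, Dtx3l, Adar and Mx2. Experiment 1 was also highest in 12 of the 23 called members of the families. Irgm2, an interferon-inducible GTPase, averaged 9.01 in experiment 1, against 7.65, 7.69 and 7.59 in experiments 2 to 4. In experiment 1 it read 8.48 with activin, 9.09 with activin plus follistatin and 9.46 with PBS. Ddx58 read 7.91, 8.01 and 7.87 there, in another order. The mean of the 14 was 8.08 in experiment 1 and 7.64, 7.61 and 7.58 in the others, and not all of them shared the direction, since Iigp1, at background, was lowest in experiment 1 (7.09, against 7.13, 7.16 and 7.10). The macrophage list mean was 7.08 in experiment 1 and 7.07, 7.06 and 7.14 in the others. The 1 measured oocyte marker of 12 listed, Dppa3, averaged 7.64 in experiment 1 and 7.12 in each of the other 3 (adjusted p = 0.00104), and of the granulosa markers Amhr2 (12.94, against 12.34, 12.57 and 12.91) and Wt1 (9.72, against 9.40, 8.93 and 9.46) were highest there too. Fst, the other granulosa marker measured, was lowest there (10.47, against 10.94, 10.60 and 10.68). Whether they have a part in the interferon pattern was not tested.

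The interferon-stimulated response element is the DNA motif bound by the complex that contains IRF9. The members of the experiment 1 pattern that hold its core GAAANNGAAA within 250 bases before the start are shown with each match in capitals, on either strand, as RefSeq sequence of GRCm38.p6. Oas1a lies at chr5:120907526-120907775 on the minus strand and Ifit3 at chr19:34583279-34583528 on the plus strand.
Oas1a: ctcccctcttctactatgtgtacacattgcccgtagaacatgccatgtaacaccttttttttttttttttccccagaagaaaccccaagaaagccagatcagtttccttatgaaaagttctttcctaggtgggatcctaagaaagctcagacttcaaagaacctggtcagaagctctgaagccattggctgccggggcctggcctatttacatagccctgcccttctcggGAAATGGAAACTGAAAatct
Ifit3: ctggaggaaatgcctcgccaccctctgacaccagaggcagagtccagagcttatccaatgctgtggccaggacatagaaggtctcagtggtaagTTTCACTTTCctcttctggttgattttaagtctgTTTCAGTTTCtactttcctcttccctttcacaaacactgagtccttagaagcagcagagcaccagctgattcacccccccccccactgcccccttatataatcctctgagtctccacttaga
Oas1a has 2 overlapping matches that begin 20 and 14 bases before the start, and Ifit3 has 2 on the reverse strand, 156 and 122 bases before it. In windows of 250 bases before to 50 after the start, the core was present in 3.99% of 27025 genes and in 30 of the 138 members with a window (21.7%). Those 30 include alpha interferon genes, which are near-identical copies of each other. Irf9, Irf7, Ifitm1 and Ifi27l2a are not among the 30, from which nothing follows about the factor.

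MHC members were lowest in experiment 4 in all 8 called cases, with 5 highest in experiment 3 and 3 in experiment 1. Experiment 4 was lowest in 16 of all 23 called members, these 8 among them, so this was not particular to the MHC. Which experiment was lowest or highest was not counted over all named genes. H2-D1, a classical class I gene, averaged 7.89, 7.65, 8.02 and 7.18 in experiments 1 to 4 (adjusted p = 0.00114). Its 3 arrays of experiment 4, at 7.18 with activin, 7.17 with activin plus follistatin and 7.21 with PBS, lay below all 9 others. H2-DMb1, a chain of the DM molecule that loads peptides onto class II, averaged 8.40, 8.05, 8.48 and 7.75 (adjusted p = 0.000249), and its paralog H2-DMb2 8.37, 8.06, 8.44 and 8.01 (adjusted p = 0.000242). The experiment held 96.2% and 97.4% of the variance of these 2 genes over the 12 arrays, and treatment 0.396% and 0.681%. H2-Q2, a non-classical class I gene, averaged 10.65, 10.22, 10.55 and 10.05 (adjusted p = 6.61e-05), with 93.1% of its variance between experiments. All 4 of these genes kept the call when any 1 experiment was left out. H2-Q5, H2-Q6, H2-T10 and H2-T23 made up the 8, and each lost its call without at least 1 experiment (H2-Q5 without 1, H2-Q6 without 4, H2-T23 without 1 or 4 and H2-T10 without 1, 3 or 4, with an adjusted p of up to 0.135, 0.101, 0.76 and 0.167). H2-K1, the other classical class I gene, was not called (adjusted p = 0.0747), with its highest array, 10.90, from PBS in experiment 1.

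All 23 MHC members lie on chromosome 17, and the promoter of H2-D1 is shown as an example of a class I gene, at chr17:35262844-35263093 on the plus strand of GRCm38.p6, with a match to GGGNNTTNCC in capitals 171 bases before the start.
H2-D1: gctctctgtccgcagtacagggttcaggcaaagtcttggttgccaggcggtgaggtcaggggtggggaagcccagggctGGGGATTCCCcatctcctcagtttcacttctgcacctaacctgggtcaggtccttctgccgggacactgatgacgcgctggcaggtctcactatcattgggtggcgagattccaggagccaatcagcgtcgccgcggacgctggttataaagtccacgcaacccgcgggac
Class I promoters are known for an enhancer that binds NF-kappaB factors. The same motif was found in the windows of H2-K1, H2-Q6 and H2-Q7.

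Of 8 measured antigen-processing genes (17 listed), the F test called 2 (25%), beside 9.25% of named genes. Above background these were 2 of 4 (50%), beside 18.5%. Both were lowest in experiment 4. Psmb8, a subunit of the immunoproteasome, averaged 8.06, 7.63, 7.88 and 7.60 in experiments 1 to 4 (adjusted p = 0.000606). The proteasome activator Psme1 averaged 12.19, 11.58, 11.76 and 11.49 (adjusted p = 0.00218). Psme2, lowest in experiment 2 (9.21), and Psmb10 were not called (adjusted p = 0.0997 and 0.255). Lyz2, the 1 macrophage marker above background, was highest in experiment 4, with 7.70 there and 7.30, 7.26 and 7.22 in experiments 1 to 3. Its mean passed the background in experiment 4 only. Cd74, the invariant chain that accompanies class II molecules in antigen-presenting cells, lay at background with 7.16.

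Outside these classes Cd59b, an inhibitor of the membrane attack complex, was highest in experiment 3 (8.63, against 8.21, 8.21 and 8.36 in experiments 1, 2 and 4, adjusted p = 0.000463), and its call was lost without that experiment (0.152). The immune checkpoint ligand Cd276 was highest in experiment 1 (9.87, against 9.61, 9.60 and 9.49, adjusted p = 0.038, lost without experiment 1 or 4, up to 0.75).

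**Figure D5:**
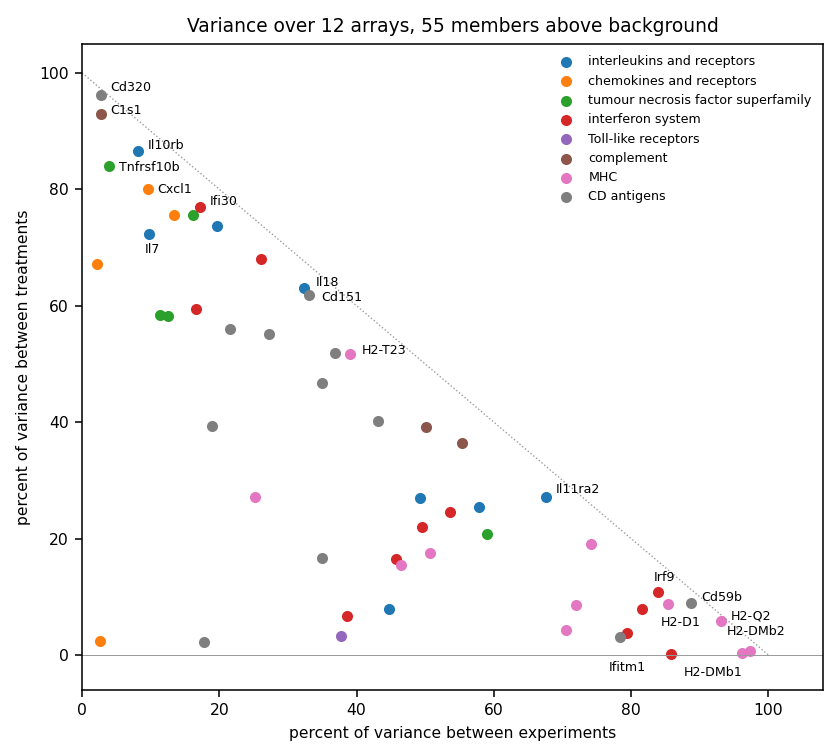
Percent of each gene's variance over 12 arrays that lies between experiments (x axis) and between treatments (y axis) for the 55 members above background, coloured by role. The dotted line marks a sum of 100%. Cd320 and C1s1 lie at the treatment end (96.2% and 92.9%), and H2-DMb2, H2-DMb1, H2-Q2, Cd59b and Ifitm1 at the experiment end (97.4%, 96.2%, 93.1%, 88.7% and 85.9%).

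Over the 55 members above background the median share of variance was 38.6% between experiments and 27.1% between treatments, against 31.7% and 30.4% for all named genes above background. By role the experiment share was highest in the MHC (71.9%, with 8.68% between treatments), the complement genes (50.1% and 39.2%) and the interferon system (49.6% and 16.5%). Treatment held the larger share in the chemokines (71.4%, with 6.11% between experiments), the TNF superfamily (58.4% and 12.5%), the interleukins and receptors (45.2% and 38.5%) and the CD antigens (43.5% and 34.0%). These are descriptions of few genes per role, 3 for complement and 4 for the chemokines, and carry no test. The complement medians are the values of C1qtnf6, and C1s1 lay at the treatment end, so they do not describe the class.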

How the data were processed

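RNA of 12 cultures was read on single-colour arrays, with 100 ng of RNA amplified and labelled with Cy3 per the labels' protocols. The deposited table holds log2-like values that the authors had already normalized between arrays. The submitters' processing notes name lumi 1.2.0 without its role. Background correction, transform and normalization method are not given in the sources used here, and the log2 reading comes from the values, which run from 6.75 to 16.2. Arrays correlated at 0.967 to 0.994 over all probes. On an array the precision is limited by the 4 arrays per treatment.

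Genes were read from the number inside each probe name, taken as a mouse Entrez gene ID, and named through a RefSeq gene table. The probe with the highest mean stood for a gene. After 38 control spots were left out, limma 3.58.1 in R 4.3.3 was fitted to 46078 probes with 3 treatment means over all 12 arrays. P-values are two-sided and Benjamini-Hochberg adjusted over all probes, and a gene was called below 0.05. Experiments were tested by an F test with treatment as a term. The fits were first tested on simulated data. Tables and figures used Python 3.11.15, pandas 2.3.3 and matplotlib 3.10.9.

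Arrays of one replicate number come from one experiment, per the labels. Deviations from the treatment means correlated at 0.335 to 0.805 between arrays of one number. Between arrays that differed in both number and treatment they correlated at -0.635 to 0.407. Because the numbers pair the arrays, the fit with the experiment as a block is given beside the counts of members it changes. Each SE is from the fit without a block unless stated, also for genes that only the block called.

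The members, gene lists and tests were chosen with earlier results of these data known. Members were named where they were among the 3 brightest of a role, were called between treatments in the fit without a block, were among the 10 strongest added by the block in a comparison, or had one of the 6 largest variance shares between experiments. Other members, among them Ifi27l2a, Oas1a, Irf7, Ifit3, Ifi205, Cd276, Cxcr2, Cd74 and the remaining MHC genes called between experiments, were chosen after their values were seen. Alternatives tried were the experiment as a fixed or random block, quantile normalization, centring on the array median, probes above background only, other ways to join probes, array weights, a trended prior variance, and leaving out each array or experiment. One gene of a related list is not reported here.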

Additional observations from a re-analysis of the deposited data

Results flagged for a closer look

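In 6 of 144 groups of 4 arrays, from 48 members, 1 array stood apart from the other 3 by Dixon's criterion, which chance alone meets in about 1 in 20 groups. No single experiment held them all, with 3 in experiment 2, 2 in experiment 3 and 1 in experiment 4. Il16 was high in the activin plus follistatin array of experiment 2 (7.63, against 7.45 to 7.47 in the others of the group). Tnfrsf10b was high in the activin plus follistatin array of experiment 3 (7.37, against 7.29 to 7.30). Csf3r, the receptor of granulocyte colony-stimulating factor, lay at background and was high in the activin plus follistatin array of experiment 4 (7.31, against 7.17 in each of the others). Cd24a was high in the activin array of experiment 2 (7.36, against 7.10 to 7.14). Cd3eap was low in the PBS array of experiment 3 (8.62, against 8.91 to 8.94). Il11ra2, a receptor gene nearly identical to Il11ra1, was low in the PBS array of experiment 2 (10.6, against 10.9 in each of the others).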

How the results depend on the processing

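With the experiment as a fixed replicate block, 16 members were called for activin against PBS, 4 for activin plus follistatin against PBS and 26 for activin against activin plus follistatin, where the fit without it called 6, 1 and 16. As a random replicate block it gave 9, 1 and 19. Leaving out 1 array or 1 experiment gave 1 to 6, 0 to 1 and 7 to 16 calls, and 11 to 19 between experiments, where all arrays gave 23. The lowest counts of the 3 treatment comparisons came without whole experiments for activin against PBS (1 without experiment 2 or 4) and for activin against activin plus follistatin (7 without experiment 3). The 1 call of activin plus follistatin against PBS was lost without any 1 experiment. Of single arrays, activin plus follistatin of experiment 3 moved the last of these most, to 10. Without the treatment term, 9 members differed between experiments. For named members, a call in a treatment comparison was kept 192 times and lost 84 times with 1 array left out, kept 47 and lost 45 times with 1 experiment left out, and kept 194 and lost 13 times under the other settings. No called difference changed sign in these refits. Fewer arrays were fitted in the left-out settings, and the cause of the remaining changes was not tested. Genes near background show compressed differences, so changes there are poorly measured.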
